A study of Saccharomyces cerevisiae with 15 samples.

Results

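The left arm of budding yeast chromosome XIII was examined through the 126 of its genes that passed the detection rule, out of 7126 rows in the expression table. Genes of that arm carry systematic names beginning with YML, and a row was kept when it reached 1 FPKM (fragment counts corrected for transcript length and for the size of the library) in at least 3 of the 15 libraries. The table held 150 such rows, of which 15 were set aside by name and 9 others stayed below the detection rule. On build R64 the RefSeq annotation placed 115 of the 126 genes on chromosome XIII, left of the centromere at chrXIII:268031-268149, and the other 11 rows had no entry. Just inside the rule stood YML047W-A, YML094C-A and YML045W-A, which had 1.18, 2.12 and 2.23 FPKM in their third-highest library. Just outside stood YML089C, YML084W and YML133C, with 0.963, 0.784 and 0.557 FPKM. No gene of the set passed the rule through the double mutant alone.

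Polyadenylated RNA came from 5 haploid strains with 3 libraries each, grown in YPD, a rich glucose medium, at 30 °C. The wild type (WT, MHY2972) is labelled MATa, and the mutants are labelled MATalpha with an added met15delta_0 allele. All 5 share his3delta_1, leu2delta_0, ura3delta_0 and lys2delta_0 in their labels. The mutants lack ULP2 (ulp2, MHY5033, kanMX), SLX5 (slx5, MHY7919, kanMX), SET1 (set1, MHY8915, HIS3), or both ULP2 and SLX5 (ulp2 slx5, MHY9109, kanMX at each locus). Ulp2 is a protease that takes apart SUMO chains, Slx5 is part of a ubiquitin ligase that recognises SUMO-modified proteins, and Set1 is a histone H3 methyltransferase. Each genotype is 1 strain, and no label says whether its 3 libraries came from separate cultures, so p-values here measure the spread between these libraries.

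When a yeast cell gains a whole chromosome, the transcripts of most genes on it rise with the number of gene copies, and some genes do not follow because their own regulation, or the state of the cell, sets their RNA level. In a haploid cell a single added copy doubles the dose of every gene on the chromosome. The products of the left arm of XIII include both alpha-tubulins, the recombination protein Rad52, subunits of general transcription and chromatin complexes, and several mitochondrial enzymes. DNA copy number was not measured in these data. In RNA from a whole culture, a rise in all cells and a larger rise in some of them cannot be told apart.

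ULP2, SLX5 and SET1 were near 0 in the strains named for their deletion. ULP2 fell from a mean of 30.4 FPKM in WT to 0.0356 in ulp2 and 0.0152 in ulp2 slx5, SLX5 from 29.4 to 0.0395 in slx5 and 0.0255 in ulp2 slx5, and SET1 from 27.9 to 0.104 in set1. The mating type of the double mutant went against its label. HMRA1, whose sequence is that of the a1 gene of MATa cells, had means of 234 FPKM in WT and 211 in ulp2 slx5. It was at most 0.481 in any library of the other mutants. MF(ALPHA)1, the alpha-factor gene, had means of 5.73 in WT and 8.78 in ulp2 slx5, and at least 3322.8 in every library of the other mutants. The auxotrophic markers also departed from the labels. LYS2, labelled as deleted in all 5 strains, had means of 0.0398 FPKM in WT and 0.0694 in set1 but 46.2 in ulp2, 43.4 in slx5 and 37 in ulp2 slx5. MET17, the gene of the met15delta_0 allele, was at 0.726 in slx5 but at 310, 300 and 228 in ulp2, set1 and ulp2 slx5, which carry the same allele in their labels. Comparisons of ulp2, slx5 or set1 with WT or with ulp2 slx5 therefore also compare the mating types, and several also compare these markers. The comparison of ulp2 slx5 with WT also differs in LYS2 (37 against 0.0398 FPKM) and in MET17 (228 against 137). The part of mating type and of these markers in the results was not tested. Library depth is unknown, since no read counts were analysed here.

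In ulp2 slx5 the left arm of XIII rose as a block. Of the 126 genes, 101 (80.2%) were called higher than WT and 1 was called lower, at an adjusted p under 0.05 by limma on log2(FPKM + 1), whereas 32.9% of all 6474 tested rows were called higher and 29.4% lower. The median gene changed by 0.53 on the log2 scale, a 1.44-fold rise, with quartiles of 0.28 and 0.83, and 117 of 126 genes changed by more than 0. Genes of the other 15 chromosomes had a median change of -0.02 and quartiles of -0.32 and 0.37. All 3 double mutant libraries stood above all 12 others for 77 genes (61.1%, against 12.5% of all tested rows), and above the 3 WT libraries for 103 genes (against 35.1% of rows). None of the 126 genes had them all below the other 12, against 8.68% of rows. A change of at least 2-fold upward was found in 17 genes (13.5%, against 9.65% of rows) and downward in none (1.33% of rows). FPKM is relative to the total of a library, so each change is relative to the other transcripts of the same cells.

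A score for the arm was taken in each library as the median deviation of its genes from their WT means, less the same median over the other 15 chromosomes. The WT libraries scored -0.022, 0.006 and 0.005, the slx5 libraries -0.008, -0.016 and -0.006, and the set1 libraries 0.012, 0.026 and 0.032. The ulp2 libraries scored 0.12, 0.142 and 0.107, and the ulp2 slx5 libraries 0.573, 0.549 and 0.559. Thus the double mutant stood at 0.56 ± 0.012 (SD, n = 3), or 1.47-fold, far outside the range of the other 12 libraries, and ulp2 at 0.12 ± 0.018 (SD, n = 3) also lay above WT without overlap. An exact permutation test of 3 libraries against 3 cannot go below p = 0.1, and no other test of the score was run. The right arm of XIII, with 352 tested rows, scored 0.49 ± 0.007 in the double mutant and 0.11 ± 0.006 in ulp2 (SD, n = 3). Of the other chromosomes in ulp2 slx5, XI scored 0.67 and I scored 0.24, and the remaining ones lay between -0.18 and 0.06.

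**Figure D1:**
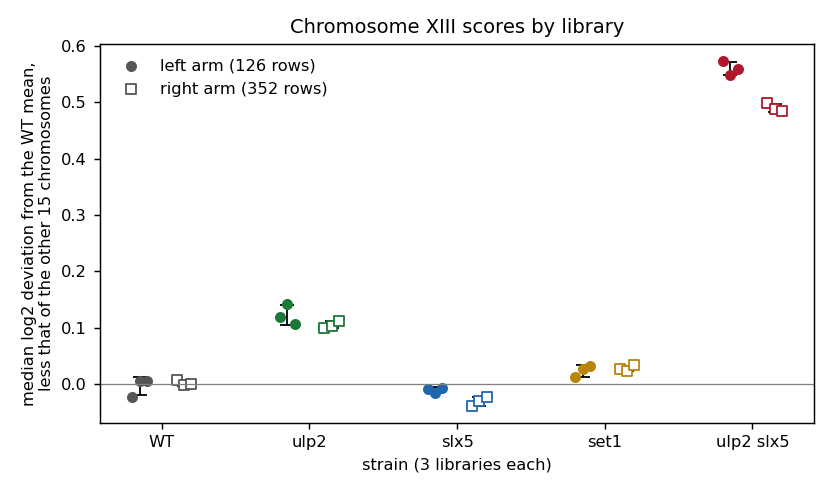
Score of the left arm of chromosome XIII, and of the right arm for comparison, in each of the 15 libraries (y axis, median log2 deviation from the WT means less that of the other 15 chromosomes). Filled points are left-arm and open points right-arm scores, with vertical bars for the mean ± SD of 3 libraries, and the 3 ulp2 slx5 libraries stand at 0.549 to 0.573 on the left arm, against at most 0.142 in the other 12.

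The rise was of the same kind against every other strain. Against slx5, 101 of the 126 genes were called higher in ulp2 slx5 and none lower, with a median of 0.51 (17.3% of all tested rows were higher and 13.4% lower). Against set1, 97 were higher and none lower, with a median of 0.46 (26.6% and 26.4% of rows). Against ulp2, 85 were higher and none lower, with a median of 0.37 (26.4% and 26.2% of rows). These comparisons share the double mutant libraries. The change against slx5 had the narrower spread over the arm, with quartiles of 0.39 and 0.66, where the genes of other chromosomes had -0.17 and 0.13. In all, 64 genes (50.8%, against 9.53% of tested rows) were called higher against all 4 other strains, 28 against 3, 20 against 2, 4 against 1 and 10 against none, where 54.5% of all tested rows were called higher against none.

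**Figure D2:**
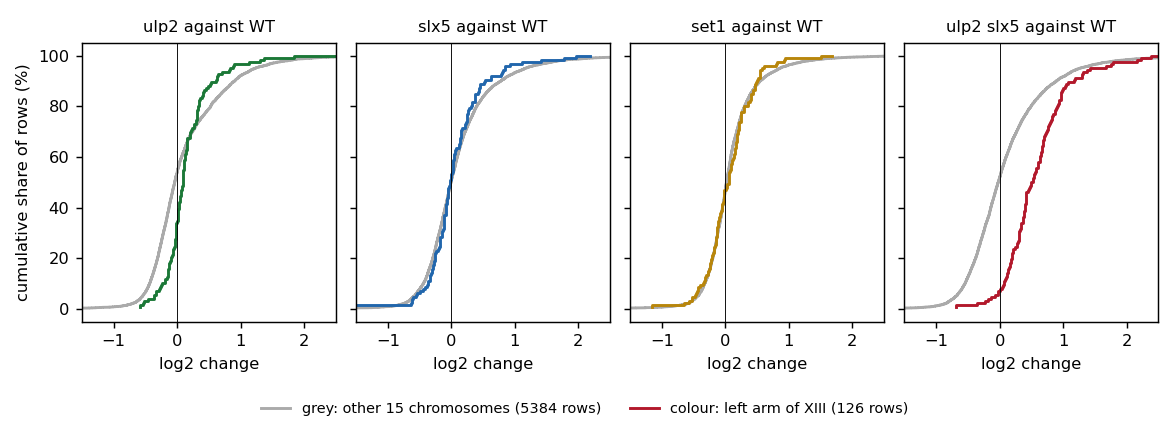
Cumulative distributions of the log2 change of each mutant against WT, 1 panel per mutant, for the 126 left-arm genes (colour) and the 5384 tested rows of the other 15 chromosomes (grey). The x axis, the log2 change of FPKM + 1, is cut at -1.5 and 2.5, and the curve of the arm is shifted to the right in ulp2 slx5, where the medians are 0.53 and -0.02.

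Along the arm the rise differed in size. In windows of 15 neighbouring genes, taken from the chromosome end toward the centromere, the median change was 0.96, 0.39, 0.52, 0.31, 0.57, 0.64 and 0.38, and 0.56 in the last window of 10 genes. The window nearest the end (chrXIII:10198-39824) had all 15 genes called higher, and it also stood at medians of 0.41 in ulp2, 0.26 in slx5 and 0.41 in set1. The window at chrXIII:104777-141533 had the lowest median, with 10 of 15 genes called higher. That at chrXIII:221406-247428 had 9 of 15 called higher and a lower quartile of 0.08. Those not called there included YOX1 (-0.36), APT1 (-0.23), OST6 (-0.02) and UNG1 (0.08). Every window median was above 0, which does not exclude shorter stretches without a rise, and 22 windows of the right arm had medians of 0.23 to 0.86.

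**Figure D3:**
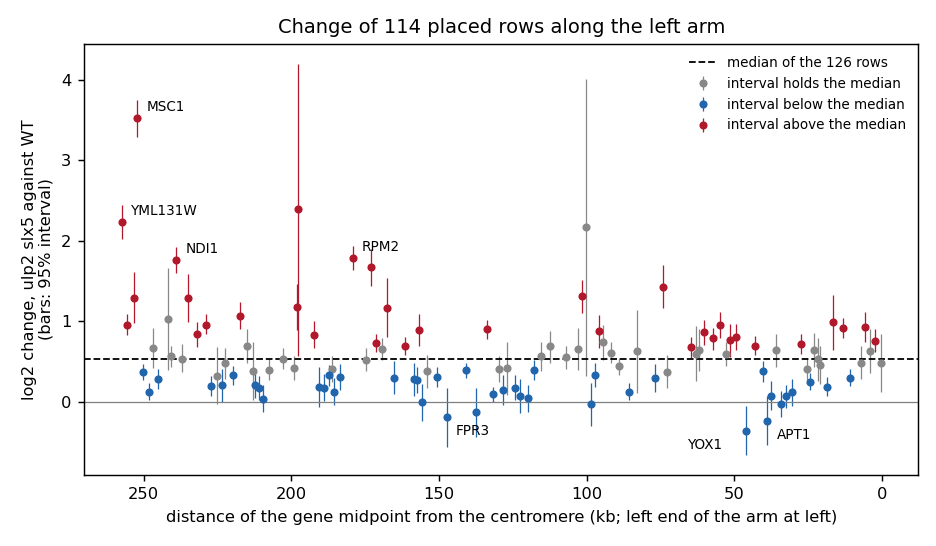
Log2 change of FPKM + 1 in ulp2 slx5 against WT (y axis, with 95% confidence intervals) of the left-arm genes by distance from the centromere in kb (x axis). Of the 115 placed genes 114 are drawn, MIN4 being left out for its interval of -4.18 to 2.81, and the dashed line marks the median of 0.53. Colours show whether the interval lies below, holds or lies above it. MSC1 is the highest point and YOX1 the lowest.

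How closely a gene followed the arm was read from the 95% confidence interval of its change set against the arm's median of 0.53, as a description. For 46 genes the interval held the median, and 40 of these were called higher and are here termed followers. It lay wholly above the median for 37 genes, all called higher, and wholly below it for 43, of which 24 were called higher. Set against a doubling, the interval lay wholly under it for 92 genes, held it for 27 and lay wholly over it for 7. In all, 25 genes were not called higher, and under quantile normalization of the libraries this number was 41. Of the 25, 19 had the interval wholly below the median. The other 6 had an interval that held it, so they cannot be told apart from a gene at the median. The genes below the median had the higher WT levels, with a median of 74.8 FPKM, against 31.5 for those whose interval held it and 46.2 for those above. The class depends on the width of the interval as well as on the change, so this contrast is partly set by the rule. YML054C-A, at a mean of 1.02 FPKM in WT, changed by 2.17 with an interval of 0.32 to 4.01, which held the median. Split by WT level into 3 groups of 42 genes, the arm had medians of 0.72 for the lowest, 0.41 for the middle and 0.38 for the highest group, and genes of other chromosomes in the same ranges of level had 0.23, -0.08 and -0.21. The difference between the arm and the other chromosomes was thus present at each level. Over the 126 genes, Spearman's rho between WT level and change was -0.39, both measures sharing the WT libraries.

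Genes nearest to the median show what following looks like. UFO1, an F-box protein that brings substrates to a ubiquitin ligase, had 69.3, 72.9 and 75.7 FPKM in WT and 106, 105 and 103 in ulp2 slx5, while the 9 libraries of the other mutants ran from 66.0 through a median of 71.7 to 82.1. Its double mutant libraries lay above all 12 others, and it changed by 0.52 ± 0.066 (log2 ± SE, adjusted p = 1.7e-05). CMP2, a catalytic subunit of calcineurin, had 55.9, 63.3 and 58.9 FPKM in WT and 89.1, 86.7 and 87.0 in ulp2 slx5, with 56.8 to 71.0 in the other mutants. It changed by 0.56 ± 0.067 (adjusted p = 1.14e-05) and did not overlap any other strain. NUP188, of the nuclear pore, rose from a mean of 39.5 to 57.7 FPKM, YML119W from 93.3 to 136, and ERV25, a cargo adaptor of COPII vesicles, from 357 to 509. These 5 changed by 1.44- to 1.47-fold.

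The genes that rose most are given here, among those called without overlap of the groups and averaging at least 10 FPKM in some strain. Each was also called higher than WT in some single mutant. NDI1 and YML090W were not called higher in ulp2 (-0.46 and -0.01), nor YML090W in set1 (0.47). MSC1, named for a role in recombination between meiotic sister chromatids, had 20.8, 17.5 and 24.2 FPKM in WT, 52.1, 52.6 and 53.5 in ulp2, 70.8, 72.9 and 77.2 in slx5, 32.5, 36.8 and 43.0 in set1 and 248, 240 and 255 in ulp2 slx5. No group overlapped another, and the change in ulp2 slx5 against WT was 3.52 ± 0.11 (log2 ± SE, adjusted p = 3.09e-11), or 11.5-fold. YML131W, whose product resembles medium-chain dehydrogenases, stood at 12.2, 10.7 and 13.1 FPKM in WT and at 57.7, 59.0 and 63.3 in ulp2 slx5, with 31.7 to 52.5 in the other mutants. It changed by 2.23 ± 0.098 against WT (adjusted p = 9.46e-10), and by 0.27 against slx5, which did not pass the test (adjusted p = 0.0506). NDI1, the inner NADH dehydrogenase of yeast mitochondria, had 38.6, 38.7 and 39.5 FPKM in WT, 26.5, 30.9 and 27.1 in ulp2, 62.1, 72.2 and 71.9 in slx5, 49.8, 50.7 and 56.5 in set1 and 131, 132 and 140 in ulp2 slx5. It was below WT in ulp2 and above WT in the other mutants, with a change of 1.76 ± 0.073 in the double mutant (adjusted p = 6.06e-10). RPM2, the protein subunit of mitochondrial RNase P, rose by 1.79 on the log2 scale and AIM33 by 1.67, both also higher than in each other strain. CAT2, a carnitine acetyltransferase, rose by 1.43, YML090W, which is not in the annotation, by 1.38, and CYB2, the L-lactate dehydrogenase of the mitochondrial intermembrane space, by 1.31.

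**Figure D4:**
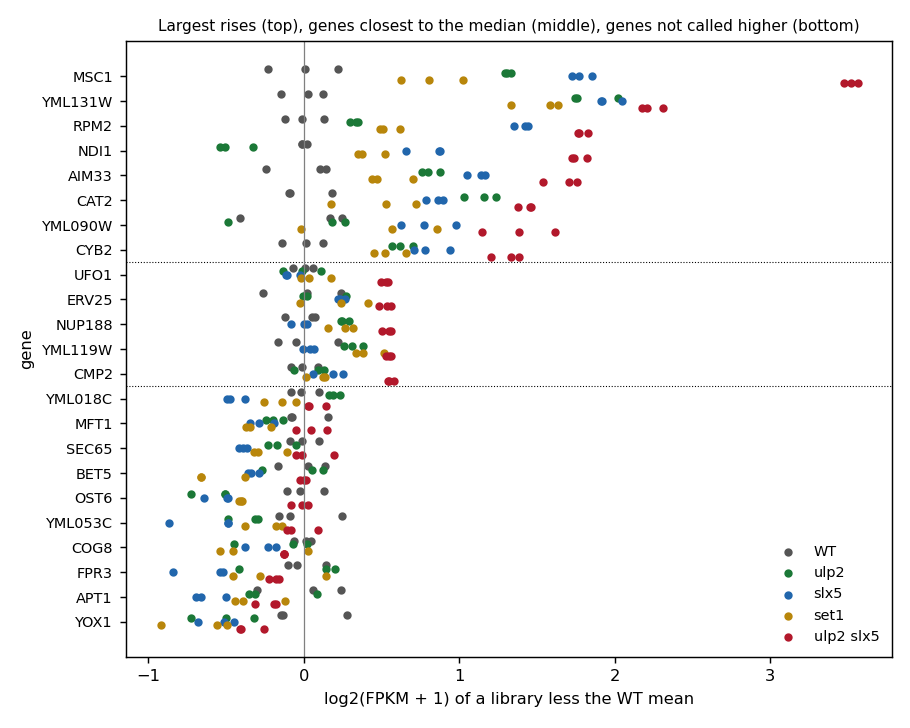
Log2(FPKM + 1) of each library less the WT mean (x axis) for the 8 largest rises, the 5 genes closest to the median and 10 genes not called higher (y axis, top to bottom). Points are single libraries coloured by strain. The ulp2 slx5 points lie to the right of all others for UFO1 and CMP2 and among or below the WT points for FPR3, APT1 and YOX1.

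Upstream sequence is shown for 4 of these genes, chosen for the largest rise (MSC1), a rise in every mutant (YML131W), opposite changes in ulp2 and ulp2 slx5 (NDI1) and the single call below WT (YOX1). Each run is 300 bases of the coding strand, 5′ to 3′, taken from the RefSeq genome of build R64 and ending 100 bases before the start codon, and it may run into a neighbouring gene. Capitals mark AGGGG or its reverse complement CCCCT, the core of the stress response element bound by Msn2 and Msn4.
MSC1 (chrXIII:16777-17076, minus strand): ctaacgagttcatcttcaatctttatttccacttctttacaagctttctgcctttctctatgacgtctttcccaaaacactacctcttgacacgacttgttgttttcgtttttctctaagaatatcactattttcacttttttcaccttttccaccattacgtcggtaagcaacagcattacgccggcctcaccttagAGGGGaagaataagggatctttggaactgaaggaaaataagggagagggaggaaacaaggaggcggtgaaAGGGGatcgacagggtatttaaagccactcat
YML131W (chrXIII:9798-10097, plus strand): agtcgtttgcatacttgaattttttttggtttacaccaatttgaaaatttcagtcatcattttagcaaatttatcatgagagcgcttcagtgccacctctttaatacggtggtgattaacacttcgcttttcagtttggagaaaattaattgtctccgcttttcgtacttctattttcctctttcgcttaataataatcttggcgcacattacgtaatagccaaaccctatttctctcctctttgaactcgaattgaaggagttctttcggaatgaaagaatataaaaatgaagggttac
NDI1 (chrXIII:29908-30207, minus strand): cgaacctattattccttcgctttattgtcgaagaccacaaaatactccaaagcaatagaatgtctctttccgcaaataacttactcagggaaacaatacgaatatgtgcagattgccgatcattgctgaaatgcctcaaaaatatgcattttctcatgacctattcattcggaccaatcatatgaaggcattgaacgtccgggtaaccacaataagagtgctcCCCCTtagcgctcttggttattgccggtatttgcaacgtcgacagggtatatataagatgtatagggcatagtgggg
YOX1 (chrXIII:221006-221305, plus strand): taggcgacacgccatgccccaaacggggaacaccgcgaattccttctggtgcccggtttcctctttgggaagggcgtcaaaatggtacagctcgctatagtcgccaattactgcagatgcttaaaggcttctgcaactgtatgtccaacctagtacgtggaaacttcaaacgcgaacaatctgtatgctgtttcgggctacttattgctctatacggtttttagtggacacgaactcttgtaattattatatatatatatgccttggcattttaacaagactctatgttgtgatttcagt
The core stood at 2 places in the MSC1 window and at 1 in that of NDI1, and YML131W and YOX1 had none there. Searched on both strands, it was present in 27 of the 115 left-arm windows (23.5%) and in 23.8% of 5832 windows of the same length over all genes. The Yap1 element TTACTAA was in 6.09% of the arm's windows and 6.98% of all, and the MluI cell cycle box ACGCGT in 4.35% and 4.05%. A match is a description of the letters and not a bound site.

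Among the genes that escaped the rise, YOX1 alone was called lower. It encodes a homeodomain repressor of genes expressed at the M/G1 boundary, and it had 26.9, 36.5 and 27.1 FPKM in WT, 17.7, 20.8 and 23.7 in ulp2, 20.6, 18.3 and 21.6 in slx5, 20.0, 15.3 and 20.9 in set1 and 22.3, 24.9 and 22.2 in ulp2 slx5. All mutant libraries lay below the lowest WT library, and the change in ulp2 slx5 was -0.36 ± 0.14 (adjusted p = 0.0429). That call was narrow, with an adjusted p of 0.195 without WT replicate 1, 0.104 without ulp2 slx5 replicate 0 and 0.108 without ulp2 slx5 replicate 2. It was also lost with no filter (0.061), after centring (0.0613) and with ulp2 slx5 and WT alone in the fit (0.0515).

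Other escaping genes were near their WT level. FPR3, a nucleolar prolyl isomerase and the most abundant of the set, had 1057, 1248.1 and 1097.8 FPKM in WT and 1001.1, 1014.8 and 967 in ulp2 slx5, with a change of -0.19 ± 0.17 (adjusted p = 0.363). APT1, adenine phosphoribosyltransferase, had 589, 406 and 520 FPKM in WT and 402, 438 and 441 in ulp2 slx5, groups that overlap, with a change of -0.23 ± 0.14 (adjusted p = 0.182). Without WT replicate 1, APT1 was called lower, at -0.37 (adjusted p = 0.0276). OST6, of the oligosaccharyltransferase, had 110, 93.0 and 98.5 FPKM in WT, 60.4 to 76.0 over the 9 libraries of the other mutants, and 99.5, 102 and 94.8 in ulp2 slx5. It stood at its WT level in the double mutant (-0.02, adjusted p = 0.842) and was called higher there than in each of ulp2, slx5 and set1. BET5, of the TRAPP tethering complex, had 113, 105 and 91.8 FPKM in WT, 78.8, 64.6 and 64.8 in set1 and 103, 101 and 104 in ulp2 slx5. Its change against WT was -0.00, and it was called higher than slx5 and set1. COG8 (-0.13), YML053C (-0.03), SEC65 of the signal recognition particle (0.04), MFT1 of the THO complex (0.05) and YML018C (0.07) were the other lowest changes, none passing the test.

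Many of the genes not called higher were lower in slx5. Of the 25 genes not called higher in ulp2 slx5 against WT, 14 were called lower in slx5 than in WT, 7 in ulp2 and 7 in set1 (background 25.1%, 26.7% and 15.2% of all tested rows), and their median change in slx5 was -0.29. When ulp2 slx5 was compared with slx5, 14 of these 25 were called higher and their median change was 0.37. In that comparison 101 of the 126 genes (80.2%) and 17.3% of all tested rows were called higher, and the arm's median was 0.51. Of the 43 genes whose interval lay below the median, 26 were lower in slx5 and none higher, and 34 were called higher in ulp2 slx5 against slx5. The count in ulp2 is close to the background share. Of the 37 genes above the median, 22 were higher in ulp2, 22 in slx5 and 19 in set1 (background 27.8%, 25.6% and 22.1% of all tested rows). Since the classes and the changes of single mutants rest on the same WT libraries, these counts are descriptions. The 10 genes called higher against none of the 4 strains were YOX1, APT1, FPR3, COG8, TEM1, YML108W, MIN4, YML031C-A, YML057C-A and YML094C-A. MIN4 was listed at 0 in slx5 replicate 1, set1 replicate 0 and ulp2 slx5 replicate 1, which set its wide interval, and its other double mutant libraries had 37.4 and 57.1 FPKM against 15.3 to 27.1 in WT.

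By function, 85 genes were put in 1 of 9 role lists, and 41, among them APT1 and MIN4, in none. Most genes of every list were called higher, to different extents. Beside the count of each list stand 80.2% of the 126 genes and 32.9% of all tested rows called higher in ulp2 slx5 against WT. All 12 genes listed for mitochondrial proteins were called higher, with a median change of 1.03. The list was chosen with earlier results known and need not hold every mitochondrial gene of the arm. Its 12 genes ranged from 0.40 for MDM1 to 1.79 for RPM2. COQ5, a methyltransferase of ubiquinone synthesis, had 268, 218 and 250 FPKM in WT and 487, 509 and 549 in ulp2 slx5, above all other libraries (1.07 ± 0.077, adjusted p = 9.91e-08). CPR3, the mitochondrial cyclophilin, rose from a mean of 215 ± 21.3 to 400 ± 28.1 FPKM (SD, n = 3). The mitochondrial list also had 6 genes higher and none lower in slx5 (median 0.40), 6 higher and 1 lower in set1 (0.32), and 3 higher and 3 lower in ulp2 (-0.02). Of all tested rows, 25.6% were higher and 25.1% lower in slx5, 22.1% and 15.2% in set1, and 27.8% and 26.7% in ulp2, so the counts in ulp2 are close to the background. Against slx5 all 12 were called higher in the double mutant (80.2% of the arm and 17.3% of all tested rows). Their median was 0.63 where the whole arm had 0.51.

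**Figure D5:**
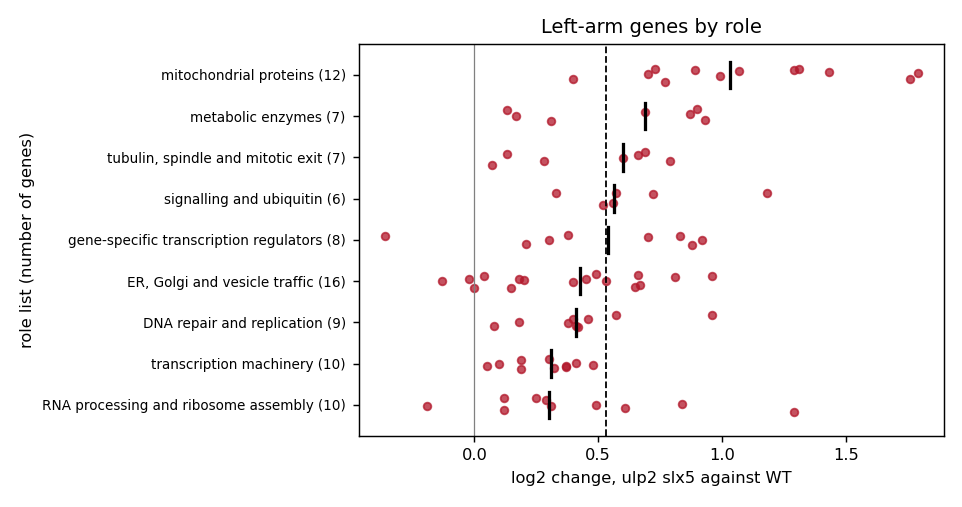
Log2 change of FPKM + 1 in ulp2 slx5 against WT (x axis) for the left-arm genes in each of 9 role lists (y axis). Points are genes, vertical bars are medians of the lists, which run from 0.30 for RNA processing to 1.03 for mitochondrial proteins, and the dashed line is the median of 0.53 over the arm.

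The lists of metabolic enzymes and of signalling and ubiquitin genes were called higher throughout. APT1, an enzyme that was not called higher (-0.23), was in no list. All 7 listed metabolic enzymes were called higher (80.2% of the arm and 32.9% of all tested rows), with a median of 0.69. Of these, URA5 of pyrimidine synthesis and ERG13, the HMG-CoA synthase, moved least, from means of 606 ± 28.3 to 681 ± 28.9 and from 387 ± 16.4 to 423 ± 13.1 FPKM (SD, n = 3). The call was lost for URA5 without WT replicate 1 or 2 or ulp2 slx5 replicate 1 or 2 (adjusted p = 0.108 to 0.144), and for ERG13 without WT replicate 1 or ulp2 slx5 replicate 0 or 1 (adjusted p = 0.0791 to 0.101). All 6 signalling and ubiquitin genes were higher, with a median of 0.56, among them GTR1, a GTPase upstream of TORC1 (71.6 ± 6.87 to 106 ± 2.13 FPKM, SD, n = 3). Of 9 genes for DNA repair and replication 8 were higher (median 0.41). RAD52, central to homologous recombination, had 44.5, 52.5 and 44.9 FPKM in WT, 91.8, 94.9 and 90.8 in ulp2 slx5, and 39.2 to 56.7 in the other mutants. It was 1.94-fold above WT and close to WT elsewhere, with a change of 0.96 ± 0.077 (adjusted p = 2.83e-07). UNG1, the uracil-DNA glycosylase, was the member of that list that did not pass, at 57.6 ± 4.75 in WT and 60.9 ± 1.17 in the double mutant (SD, n = 3).

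Of 10 genes of the transcription machinery 6 were called higher, with a median of 0.31 and none above 0.48. The share called higher was 80.2% over the arm and 32.9% over all tested rows. POB3, of the histone chaperone FACT, had 163 ± 8.71 FPKM in WT and 174 ± 3.6 in ulp2 slx5 (SD, n = 3; 0.10, adjusted p = 0.0801), and SPT5, an elongation factor, rose by 0.19 on the log2 scale. In slx5 this list had 4 genes lower and none higher than WT (25.1% and 25.6% of all tested rows). Against slx5 the double mutant had 9 of 10 higher (median 0.43), beside 80.2% of the arm and 17.3% of all tested rows. Of 8 gene-specific regulators 6 were higher and YOX1 was lower (median 0.54). YAP1, the activator of oxidative stress genes, had 88.6, 94.1 and 89.6 FPKM in WT and 170, 179 and 169 in ulp2 slx5, against 96.1 to 120 in the other mutants (0.92 ± 0.056, adjusted p = 1.99e-08). GAL80, the repressor of galactose genes, rose by 0.88. Of 16 genes for the endoplasmic reticulum, Golgi and vesicle traffic 10 were higher (median 0.42), with GSF2 at 0.45 and the 6 others not called. Of 10 genes for RNA processing, tRNA modification and ribosome assembly 8 were higher (median 0.30), with UTP14 of the small-subunit processome at 0.31.

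Both alpha-tubulin genes lie on the left arm and rose by different amounts. TUB1 had 292, 264 and 279 FPKM in WT and 416, 431 and 469 in ulp2 slx5, a change of 0.66 ± 0.063 (adjusted p = 1.48e-06). TUB3 had 219, 202 and 210 FPKM in WT and 255, 256 and 257 in ulp2 slx5, a change of 0.28 ± 0.059 (adjusted p = 0.000967). In both genes the double mutant libraries lay above all others. TUB1 was called higher there than in each other strain. TUB3 was not called higher than in slx5 (0.14, adjusted p = 0.0855) or set1 (0.11, adjusted p = 0.134). In the list for tubulin, spindle and mitotic exit 5 of 7 genes were higher (median 0.60), beside 80.2% of the arm and 32.9% of all tested rows. The tubulin-folding prefoldin subunit GIM5 was not called (0.13). The coding sequences of TUB1 and TUB3 are identical at 1087 of 1338 aligned bases (81.2%), with a longest identical run of 32 bases, and TUB3 shares 120 bases with the non-coding gene YNCM0001W, so how reads were split between these genes is uncertain. Beta-tubulin, TUB2, lies on chromosome VI and had 338 ± 23.8 FPKM in WT and 355 ± 4.26 in ulp2 slx5 (SD, n = 3; 0.07, adjusted p = 0.266).

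Genes outside the set that encode partners of the arm's products in the same complexes mostly did not rise. Of 48 such genes, 3 were called higher and 28 lower in ulp2 slx5 (32.9% and 29.4% of all tested rows). Their median change was -0.29. The 3 were CTK1 (0.68, chromosome XI), NSE1 (0.40, XII) and RAD1 (0.23, XVI), partners of the left-arm genes CTK3 (0.48), NSE5 (0.38) and RAD10 (0.41). The largest falls were those of SFH1 (-0.83 ± 0.13) and RSC8 (-0.76 ± 0.1), both of the chromatin remodeller RSC, whose left-arm subunit RSC9 rose from a mean of 59.6 to 77.4 FPKM (0.37, adjusted p = 1.75e-05). RLF2 and MSI1, partners of CAC2 in chromatin assembly factor CAF-1, fell by 0.61 and 0.32 where CAC2 rose by 0.42. The 33 partners on chromosomes other than I, VII, XI, XII and XIII had a median of -0.33, with 1 higher and 24 lower. The 13 on I, VII, XI and XII had -0.07, with 2 higher and 4 lower. The 2 on the right arm of XIII, TAF4 and TAF9, changed by 0.13 and 0.12 and were not called. The partners were lower in the single mutants too, with 26 of 48 called lower in ulp2, 22 in slx5 and 13 in set1 (26.7%, 25.1% and 15.2% of all tested rows).

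In slx5 and set1 the arm as a whole stayed near WT, and in ulp2 its score of 0.107 to 0.142 lay slightly above every WT library. The reference of that score holds chromosomes I and XII, which themselves scored 0.93 and 0.84 in ulp2. Individual genes moved in each single mutant. The largest changes named here are those called among genes averaging at least 10 FPKM in some strain. In ulp2, 41 genes were called higher and 13 lower than WT, with a median of 0.09 (27.8% of all tested rows were higher and 26.7% lower). The split depended on the scaling, with 29 higher and 19 lower after quantile normalization and 58 and 8 after centring each library on the median of the chromosomes other than I, VII, XI, XII and XIII. The largest rises in ulp2 were YML131W (1.84 ± 0.098), MSC1 (1.31 ± 0.11) and CAT2 (1.14 ± 0.12), and the largest falls OST6 (-0.58 ± 0.073), UNG1 (-0.54 ± 0.083) and YOX1 (-0.52 ± 0.14). In slx5, 28 were higher and 26 lower, with a median of -0.01 (25.6% and 25.1% of rows), or 22 and 36 after quantile normalization. YML131W (1.96 ± 0.098), MSC1 (1.78 ± 0.11) and RPM2 (1.41 ± 0.068) rose most there, and FPR3 (-0.63 ± 0.17), APT1 (-0.62 ± 0.14) and YML053C (-0.61 ± 0.12) fell most. In set1, 36 were higher and 18 lower, with a median of 0.05 (22.1% and 15.2% of rows), or 29 and 24 after quantile normalization and 22 and 11 when only set1 and WT entered the fit. YML131W (1.51 ± 0.098), MSC1 (0.82 ± 0.11) and NGL3, a protein with a nuclease domain (0.80 ± 0.14), led the rises, and YOX1 (-0.66 ± 0.14), BET5 (-0.57 ± 0.11) and PML39, a nuclear pore protein that retains unspliced RNA (-0.52 ± 0.076), the falls. MIN4, at -1.61 in slx5 and -1.16 in set1, was not called. YML131W and MSC1 were thus the leading rises among these genes in each of the 3 single mutants.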

How the data were processed

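FPKM values for 7126 rows in 15 libraries were deposited by the authors, who used TopHat2 2.0.12 and Cuffdiff on build R64, per the submitters' processing notes. Cuffdiff's version, the annotation, the strandedness and any filters are not given in the sources used here, so antisense or overlapping rows may share reads. Columns summed to 1213826 to 1761583 FPKM, and 645 to 819 rows per library were at 0. No read counts were analysed, and the depth is unknown. Steps between low values gave relative depths of 0.371 to 1.47, which moved by more than 1.5 times with the cutoff for 3 libraries, so no reads were recovered.

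Differences were computed as log2(FPKM + 1) for 6474 rows with at least 1 FPKM in 3 libraries, in R 4.3.3 with limma 3.58.1 (lmFit, and eBayes with a trend), in a single fit of 15 libraries with 10 residual degrees of freedom. Benjamini-Hochberg adjustment was made per comparison (7 in all), and calls used an adjusted p under 0.05. A pseudocount of 1 understates changes of low rows. The fit was tested on simulated data. Of the table, 6048 rows matched RefSeq R64 by systematic name.

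Members, role lists and comparisons were chosen with earlier results of these data known. Named genes average 10 FPKM or more in some strain. They are the 8 largest rises without overlap and the falls called against WT, the 10 lowest changes not called higher with an interval below the median, the 5 highest WT levels, the 5 changes closest to the median, TUB1, TUB3, the 2 most abundant genes of each role list, and the 3 largest rises and falls called in each single mutant. The genes of the list called against none, MIN4, YML054C-A, TAF4, TAF9, the RSC, CAF-1, CTK1, NSE1, RAD1 and TUB2 pairs and MDM1 were named after their values were seen. Alternatives were other pseudocounts, filters and scalings, a fit of 2 groups only, a replicate block and leaving out each replicate.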

Additional observations from a re-analysis of the deposited data

Results flagged for a closer look

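For 5 of the genes chosen by the naming rule, every library of 1 strain lay on one side of WT and every ulp2 slx5 library on the other. These differences between strains in direction were not tested as such. NDI1 changed by -0.46 in ulp2 and by 1.76 in ulp2 slx5. In slx5, SPT5 changed by -0.32, GSF2 by -0.12, UTP14 by -0.26 and PML39 by -0.29, beside 0.19, 0.45, 0.31 and 0.21 in ulp2 slx5. The change of GSF2 in slx5 was not called (adjusted p = 0.0609). PML39 also changed by -0.52 in set1.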

How the results depend on the processing

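The rise of the arm kept its direction in every alternative run. Against WT the median change in ulp2 slx5 was 0.44 with a pseudocount of 5, 0.49 with a filter of 10 FPKM, 0.39 after quantile normalization, 0.58 after centring on chromosomes other than I, VII, XI, XII and XIII, and 0.49 to 0.54 with a replicate left out. Quantile normalization moved the median of all rows by -0.14, and relative to it the arm stood at 0.50, as before. It left 41 genes not called higher. The filter of 10 FPKM left 6 genes called higher against none of the 4 strains. No gene was called lower against WT (0) with no filter, after centring, with 2 groups only or with the replicate block, and leaving out each replicate gave 0 to 1. Quantile normalization and centring gave medians of 0.03 and 0.19 in ulp2 (8 lower after centring), -0.08 and 0.01 in slx5, 0.35 and 0.32 for ulp2 slx5 against ulp2 (1 gene lower in each), 0.48 and 0.54 against slx5, and 0.37 and 0.51 against set1. Quantile normalization gave 0.01 in set1. With a pseudocount of 5 the medians against ulp2, slx5 and set1 were 0.33, 0.46 and 0.39. Against set1, 1 gene was lower with no filter and after quantile normalization. With set1 and WT alone in the fit, 22 genes were higher and 11 lower in set1. Leaving out each replicate gave medians of -0.03 to 0.00 in slx5, 0.04 to 0.07 in set1, 0.37 to 0.39 against ulp2 and 0.43 to 0.48 against set1, the last with 0 to 1 gene lower.

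Of the named genes, those near 0 changed sign. FPR3 was 0.03, MFT1 -0.04 and UNG1 -0.01 after quantile normalization, and YML053C 0.02, OST6 0.03 and BET5 0.05 after centring. Leaving out each replicate gave -0.08 to 0.07 for BET5, -0.00 to 0.12 for MFT1, -0.07 to 0.05 for OST6, -0.03 to 0.09 for SEC65 and -0.11 to 0.09 for YML053C. POB3 was called higher with no filter (adjusted p = 0.0448), after centring (0.00627) and without WT replicate 1 (0.0127). The rise of PML39 in ulp2 slx5 was not called after quantile normalization (adjusted p = 0.117), with 2 groups only (0.0908), or without WT replicate 0 (0.0537), WT replicate 1 (0.115) or ulp2 slx5 replicate 0 (0.122).

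Replicate numbers are not tied by any label, and same-numbered libraries deviated together by correlations of only -0.128 to 0.14. With the replicate block, 23 genes were not called higher, 66 were called higher against all 4 strains and YOX1 had an adjusted p of 0.0572. With 3 libraries a strain, unknown depth and FPKM that are relative to each library, small differences around the arm's median cannot be resolved. Annotation and strandedness are not given in the sources used here, so the 5 members that overlap another annotated gene may share its reads.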
